A study of Homo sapiens with 12 samples.

Results

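The heterogeneous nuclear ribonucleoprotein (hnRNP) genes described here are HNRNPA1, HNRNPA2B1, HNRNPA3, HNRNPC, HNRNPD, HNRNPDL, HNRNPH1, HNRNPH3, HNRNPK and HNRNPU. They were chosen by name, and all 10 were found once each among the 67049 gene identifiers of every count table. All 10 are annotated as protein-coding, and all 10 passed the filter on low counts, among 20394 genes tested. The cells were HEK293T, an established human embryonic kidney line, transiently transfected for 48 h with the plasmid pIRES2-SF3B1 carrying either the wild-type (WT) sequence or the K700E mutant of SF3B1, a core subunit of the spliceosome's U2 particle. RNA from the nucleus and from the cytoplasm was sequenced in 3 libraries for each of 4 groups (WT nucleus, WT cytoplasm, K700E nucleus, K700E cytoplasm), 12 libraries in all. By its title, the study asks about nuclear export of mRNA and the contact between SF3B1 and THOC5, a subunit of the THO complex. Every group carried a plasmid, so no untransfected level is available, and the cells' own SF3B1 alleles were present throughout. Nothing in the labels ties the 3 libraries of a group to separate transfections, so the p-values rest on a spread between libraries that may be technical.

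HnRNP proteins coat pre-mRNA as it is transcribed. They steer splice site choice, polyadenylation and stability, and several of them travel with mRNA to the cytoplasm and return. Many of their genes make alternatively spliced transcripts that are kept in the nucleus or degraded, through which the proteins limit their own synthesis. The family falls into close paralog sets by sequence: A1, A2B1 and A3, then D and DL, then H1 and H3, with C, K and U as more distant members.

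Library totals ran from 9086743 to 18116929 counts, and the 10 genes held 0.656% to 1.26% of them. Levels are given as TMM-scaled CPM, the count divided by the scaled library total, so a level is a share of one fraction's RNA and not an amount per cell. In bulk RNA, fewer cells and less RNA per cell cannot be told apart. A set of 10 long noncoding RNAs, most of them known as nuclear, summed to 3539 to 10788 CPM in the 6 nuclear libraries and to 359 to 513 CPM in the 6 cytoplasmic libraries. Of the 9 that were tested, 8 were lower in the cytoplasm in WT and 7 in K700E cells, and OIP5-AS1 was about even (141 and 143 CPM in WT nuclei and cytoplasms, 200.2 and 186 CPM with K700E). The 13 mitochondrial mRNAs summed to 907 to 1245 CPM in nuclei and 4473 to 18783 CPM in cytoplasms. SF3B1 reached 9430 ± 1061 CPM in WT and 7924 ± 882 CPM in K700E cytoplasms (SD, n = 3), and these tables do not separate plasmid from endogenous transcripts or the mutant from the wild-type allele. Of 9 markers of HEK293T cells, 8 were at 1 CPM or more in every group and LHX1 was below. Of 12 markers of other cell types, CD3E was at 0 in all libraries, and COL1A1 had the highest mean level at 32.5 CPM.

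The mRNAs were distributed between nucleus and cytoplasm in different ways. In WT cells, 6 of the 10 were higher in the cytoplasm (HNRNPC, HNRNPA1, HNRNPK, HNRNPA3, HNRNPU and HNRNPD), HNRNPH1 was lower, and HNRNPA2B1, HNRNPDL and HNRNPH3 did not pass the test. As background, 67.1% of all genes passed this test, 27.1% as higher and 40% as lower, and of the 13901 protein-coding genes 35.4% passed as higher and 29.5% as lower. The median log2 difference, cytoplasm against nucleus, was 0.99 over the 10 genes, −0.40 over all genes and 0.13 over protein-coding genes. In K700E cells, 5 of the 10 were higher in the cytoplasm (the same genes without HNRNPD) and 2 were lower (HNRNPH1 and HNRNPDL), beside 28.1% higher and 37.9% lower among all genes (65.9% in either direction) and 36.5% and 27.4% among protein-coding genes. The median there was 0.30, against −0.29 over all genes and 0.19 over protein-coding genes. Libraries of the fractions did not overlap, with the cytoplasm higher, for 29.7% of all genes in WT and 30.2% in K700E cells, and with the cytoplasm lower for 40.4% in each, which is the background for statements on overlap below. The test was edgeR's quasi-likelihood test, with Benjamini-Hochberg adjustment over all 20394 genes and a threshold of 0.05.

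The counts of called genes depend on how libraries are scaled. With library size alone in place of TMM, 5 were higher and 3 lower in WT cells, and 3 and 3 in K700E cells. With upper quartile factors, 5 were higher and 2 lower in WT cells, and 3 and 3 in K700E cells. Over all genes, the share of calls that were higher was 40.3% in WT cells with TMM, 26.9% with library size alone and 30.4% with upper quartile factors, and in K700E cells 42.6%, 30.8% and 32.4%. Library size alone lowered the median of all genes by a log2 difference of −0.52 in WT and −0.41 in K700E cells, and upper quartile factors by −0.38 and −0.37. Differences between hnRNP genes within a library, given further on, are free of this choice.

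**Figure D1:**
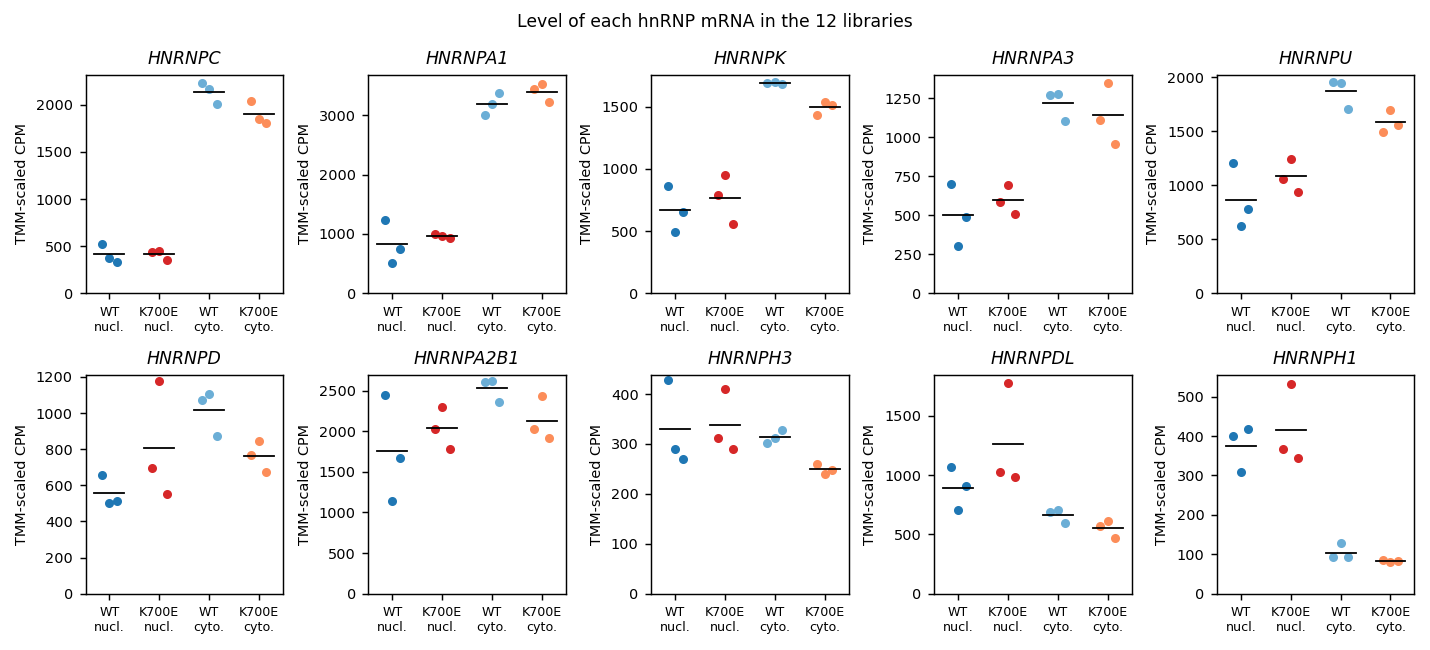
Level of each of the 10 hnRNP mRNAs in every library, in TMM-scaled CPM on the vertical axis (each panel has its own scale, starting at 0), by group on the horizontal axis. Points are libraries and lines are means of 3. The lowest cytoplasmic point of HNRNPC lies at 1805 CPM and its highest nuclear point at 528 CPM, while HNRNPH1 has the reverse order.

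HNRNPC (ENSG00000092199.18, chr14:21209136-21269494, minus strand) encodes the C proteins, which bind uridine-rich stretches of pre-mRNA as tetramers and stay in the nucleus. Its mRNA measured 528, 379 and 334 CPM in WT nuclei and 2227, 2173 and 2006 CPM in WT cytoplasms. With K700E the values were 436, 453 and 356 CPM in nuclei and 2042, 1848 and 1805 CPM in cytoplasms. No nuclear library came near a cytoplasmic one. The log2 difference was 2.37 ± 0.22 (SE) in WT cells (5.16-fold, adjusted p = 2.22e-07) and 2.19 ± 0.22 in K700E cells (4.58-fold, adjusted p = 4.12e-07), the highest of the 10 in both constructs. The mRNA of a protein that itself stays in the nucleus thus had the highest cytoplasm-to-nucleus difference of these genes.

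HNRNPK (ENSG00000165119.21, chr9:83968083-83980616, minus strand) encodes a poly(C)-binding protein with KH domains that acts in transcription, splicing and translation. Its WT cytoplasms were almost identical, at 1691, 1698 and 1682 CPM, and its WT nuclei were spread over 864, 491 and 651 CPM. In K700E cells the nuclei measured 793, 951 and 561 CPM and the cytoplasms 1435, 1536 and 1512 CPM. The groups did not overlap in either construct. Cytoplasm against nucleus, the log2 difference was 1.34 ± 0.24 in WT cells and 0.96 ± 0.24 in K700E cells, with adjusted p of 0.000134 and 0.00204.

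HNRNPU (ENSG00000153187.20, chr1:244840638-244864560, minus strand) encodes scaffold attachment factor A, which binds chromatin and RNA in the nucleus. In WT cells it measured 1205, 622 and 778 CPM in nuclei and 1959, 1951 and 1705 CPM in cytoplasms. Its K700E levels were 1063, 1248 and 938 CPM in nuclei and 1498, 1696 and 1557 CPM in cytoplasms. Both sets of cytoplasms lay above their nuclei. On the log2 scale the difference was 1.11 ± 0.24 in WT cells (adjusted p = 0.000647) and 0.55 ± 0.23 in K700E cells, where the adjusted p of 0.0480 was just under the threshold. That K700E call was lost in 12 of the alternatives tried, with adjusted p up to 0.550 (library size alone), including the fits without K700E nucleus 1 or 3 and without K700E cytoplasm 1, 2 or 3. Annotated exons cover 94.1% of the gene's span, so few of its positions are purely intronic in the annotation. COX20, on the opposite strand, overlaps 3502 of those exonic bases but held only 5.92 CPM in nuclei and 0.38 CPM in cytoplasms.

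Among the A-type genes of the 10, HNRNPA1 was strongly cytoplasmic, HNRNPA3 less so, and HNRNPA2B1 was not called in either construct. HNRNPA1 (ENSG00000135486.19, chr12:54280193-54287088, plus strand) encodes a shuttling protein that represses the use of many splice sites. It measured 1239, 506 and 746 CPM in WT nuclei and 2996, 3179 and 3367 CPM in WT cytoplasms. With K700E they were 993, 964 and 926 CPM in nuclei and 3434, 3531 and 3214 CPM in cytoplasms. Its fractions lay far apart in both constructs, although the WT nuclei themselves differed more than any other group of this gene. The log2 difference was 1.94 ± 0.26 in WT cells (3.83-fold, adjusted p = 1.02e-05) and 1.82 ± 0.26 in K700E cells (3.53-fold, adjusted p = 1.87e-05). The annotation lists 74 pseudogenes of HNRNPA1, which together held 4.89% of its level in nuclei and 2.16% in cytoplasms, with HNRNPA1P7 the highest at 26.1 CPM. How reads that match several loci were counted is not given in the sources used here, so reads of HNRNPA1 and its copies may be split between them.

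HNRNPA2B1 (ENSG00000122566.22, chr7:26173057-26201529, minus strand) encodes the A2 and B1 isoforms, which bind mRNA and microRNA and take part in RNA transport. It measured 2448, 1139 and 1676 CPM in WT nuclei and 2604, 2621 and 2358 CPM in WT cytoplasms. K700E nuclei measured 2034, 2303 and 1783 CPM and K700E cytoplasms 2028, 2440 and 1920 CPM. In both constructs the 2 fractions overlapped. Cytoplasm against nucleus, the log2 difference was 0.53 ± 0.25 in WT cells (95% interval 0.01 to 1.05, adjusted p = 0.0684) and 0.06 ± 0.25 in K700E cells (−0.46 to 0.58, adjusted p = 0.835). Without WT nucleus 1, the highest nuclear library, the WT difference was 0.90 with an adjusted p of 0.00357. The WT difference was also called with voom (adjusted p = 0.0309) and without the filter (0.0489). Its value in K700E cells was below 0 with library size, upper quartile or DESeq2 scaling, with the filter of 1 CPM in every library, and without K700E cytoplasm 2. CBX3, on the opposite strand, overlaps 368 exonic bases of HNRNPA2B1 and held 255 CPM in nuclei and 604 CPM in cytoplasms. The use of strand in counting is not given, and whether this overlap bears on the ratio was not tested.

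HNRNPA3 (ENSG00000170144.21, chr2:177212563-177223958, plus strand) encodes a closely related protein of RNA packaging. It measured 701, 305 and 490 CPM in WT nuclei and 1273, 1275 and 1107 CPM in WT cytoplasms. In K700E cells it measured 585, 693 and 510 CPM in nuclei and 1112, 1350 and 960 CPM in cytoplasms. The cytoplasms were above the nuclei throughout. On the log2 scale the difference was 1.29 ± 0.26 in WT cells (adjusted p = 0.000464) and 0.94 ± 0.26 in K700E cells (adjusted p = 0.00490). The K700E call was lost under scaling by library size (adjusted p = 0.0531) or by upper quartiles (0.0516).

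HNRNPD and HNRNPDL, neighbours on chromosome 4 and close paralogs, had different calls: HNRNPD was called higher in the WT cytoplasm and HNRNPDL lower in the K700E cytoplasm, and each was not called in the other construct. HNRNPD (ENSG00000138668.19, chr4:82352498-82374503, minus strand) encodes AUF1, which binds AU-rich elements and affects mRNA decay, and HNRNPDL (ENSG00000152795.18, chr4:82422564-82430408, minus strand) encodes a related protein of transcription and splicing. HNRNPD measured 658, 503 and 513 CPM in WT nuclei and 1071, 1103 and 872 CPM in WT cytoplasms, without overlap. Its K700E values were 697, 1178 and 552 CPM in nuclei and 767, 845 and 675 CPM in cytoplasms, so the second nuclear library alone exceeded all 3 cytoplasms. The log2 difference was 0.86 ± 0.25 in WT cells (adjusted p = 0.00672) and −0.09 ± 0.25 in K700E cells (95% interval −0.62 to 0.45, adjusted p = 0.779). Without K700E nucleus 2, the K700E value was 0.31, with the sign of the WT value. The WT call was lost when libraries were scaled by size alone (adjusted p = 0.162), by upper quartile factors (0.0841), or when genes needed 1 CPM in every library (0.0611).

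HNRNPDL measured 1068, 708 and 907 CPM in WT nuclei and 692, 708 and 600 CPM in WT cytoplasms, which touched at 708 CPM. In K700E cells it measured 1028, 1779 and 985 CPM in nuclei and 569, 612 and 470 CPM in cytoplasms, without overlap. The same library, K700E nucleus 2, was the highest for both genes. The log2 difference of HNRNPDL was −0.42 ± 0.24 in WT cells (adjusted p = 0.135) and −1.20 ± 0.25 in K700E cells (2.30-fold lower in the cytoplasm, adjusted p = 0.000520). Without K700E nucleus 2 the latter was −0.85 and still called. The WT difference was called under the same 3 settings, with adjusted p of 0.00104, 0.00835 and 0.0127.

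The bases before the start sites of this neighbouring pair are shown from RefSeq on GRCh38.p14. Their shared highest library is not particular to them, since K700E nucleus 2 was the highest of its group for 9 of the 10 genes. The 250 bases before each RefSeq start were searched on both strands for the CCAAT box (CCAAT), the GC box (GGGCGG), the TATA box (TATAAA), the E-box (CACGTG), an ETS motif (CCGGAAG) and a YY1-type motif (AAGATGG). Matches are in capitals in the stretches printed, which are those nearest the start that hold no annotated untranslated region. The HNRNPD stretch is chr4:82373992-82374118 on the minus strand, 127 bases, inside the span of a longer annotated HNRNPD transcript. The HNRNPDL stretch is chr4:82430463-82430561 on the minus strand, 99 bases, upstream of the annotated gene.
HNRNPD: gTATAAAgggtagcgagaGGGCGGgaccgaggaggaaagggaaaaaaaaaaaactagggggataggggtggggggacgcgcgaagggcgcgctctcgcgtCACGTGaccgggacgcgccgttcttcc
HNRNPDL: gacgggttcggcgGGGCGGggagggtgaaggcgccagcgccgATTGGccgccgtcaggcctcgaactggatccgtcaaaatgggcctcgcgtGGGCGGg

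HNRNPDL has an inner and an outer RefSeq start, and the stretch printed is from the outer window. The HNRNPD window and both HNRNPDL windows held the E-box letters CACGTG. In the outer HNRNPDL window they lie in the part not printed, which holds an annotated untranslated region. These letters were in 6.34% of 35116 windows and in 5 of 16 windows of the hnRNP genes, from HNRNPA3, HNRNPD, HNRNPDL and HNRNPH3. The GC box was in 42.6% of all windows and in 10 of the 16, and the CCAAT box in 32.0% and in 7 of the 16. The TATA box was in 2 of the 16 (10.7% of all windows), the ETS motif in 1 (8.52%) and the YY1-type motif in 0 (3.70%). A match is a run of letters and not a site, and 9 of the 10 genes were matched, without HNRNPA1.

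HNRNPH1 (ENSG00000169045.17, chr5:179614178-179634784, minus strand) encodes a protein that binds runs of G in pre-mRNA. It was the most nuclear of the 10 mRNAs. It measured 399, 309 and 417 CPM in WT nuclei and 93.1, 127 and 92.4 CPM in WT cytoplasms. In K700E cells it measured 366, 533 and 345 CPM in nuclei and 84.3, 81.4 and 83.3 CPM in cytoplasms. Every nuclear library was above every cytoplasmic one. Cytoplasm against nucleus, the log2 difference was −1.85 ± 0.23 in WT cells (3.60-fold lower in the cytoplasm, adjusted p = 3.43e-06) and −2.32 ± 0.23 in K700E cells (4.99-fold lower, adjusted p = 4.16e-07).

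The counts of HNRNPH1 need care. Genes beside it on chromosome 5 held few counts, among them CANX, which encodes the abundant chaperone calnexin, with a mean of 129 counts a library, MAML1 with 9.67 and MGAT4B with 0.17. These neighbours were looked at after the values were seen. Of the identifiers, 8609 had no entry in the annotation used here, and they held 0.169% to 0.464% of counts. The tables may therefore hold a part of the reads of HNRNPH1, and whether this bears on its ratio was not tested. Without HNRNPH1, 6 of 9 genes were higher and 0 lower in WT cells, and 5 and 1 in K700E cells.

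HNRNPH3 (ENSG00000096746.18, chr10:68331174-68343191, plus strand) encodes a shorter relative of the H proteins. It was not called in either construct. It measured 429, 290 and 270 CPM in WT nuclei and 302, 311 and 329 CPM in WT cytoplasms. In K700E cells it measured 312, 410 and 291 CPM in nuclei and 260, 239 and 247 CPM in cytoplasms. The WT groups overlapped and the K700E groups did not. On the log2 scale the difference was −0.07 ± 0.21 in WT cells (95% interval −0.52 to 0.38, adjusted p = 0.787) and −0.44 ± 0.21 in K700E cells (−0.89 to 0.01, adjusted p = 0.0800). The K700E difference was called with library size alone, upper quartile factors, DESeq2 (adjusted p = 0.0175) and the filter of 1 CPM in every library, and the WT difference with library size alone (0.0113). Without WT nucleus 1 the WT value was 0.22, on the other side of 0. RUFY2, on the opposite strand, overlaps 115 exonic bases of HNRNPH3 and held 70.8 CPM in nuclei and 44.2 CPM in cytoplasms. Whether this overlap bears on the ratio was not tested.

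**Figure D2:**
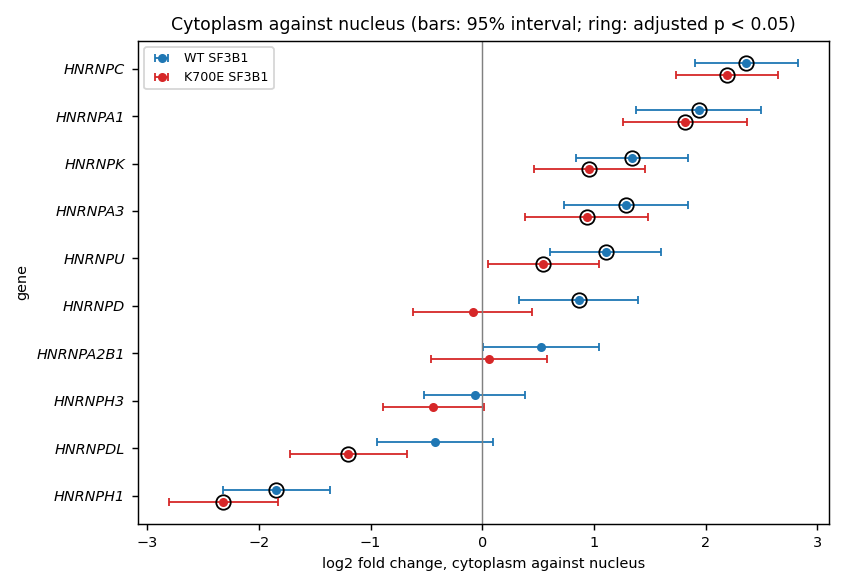
Log2 fold change, cytoplasm against nucleus, of the 10 hnRNP genes in WT (blue) and K700E (red) cells, with 95% intervals. Ringed points passed the test. The genes run from HNRNPC at 2.37 and 2.19 down to HNRNPH1 at −1.85 and −2.32.

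Per kilobase of the principal transcript, the genes can be ordered by level within a fraction. In WT cytoplasms the order was HNRNPC (1246 ± 67.2 CPM per kb, SD, n = 3), HNRNPA1 (772 ± 44.99), HNRNPA2B1 (723 ± 42.1), HNRNPA3 (589 ± 46.6), HNRNPK (575 ± 2.79), HNRNPD (335 ± 41.2), HNRNPU (274 ± 21.2), HNRNPDL (161 ± 14.2), HNRNPH3 (134 ± 5.69) and HNRNPH1 (28.4 ± 5.47). The neighbours HNRNPA1 and HNRNPA2B1, HNRNPA3 and HNRNPK, and HNRNPD and HNRNPU did not differ beyond their SDs. The K700E cytoplasms gave the same order. In WT nuclei HNRNPA2B1 led with 502 ± 188 CPM per kb, and the other 9 genes lay between 102 and 242 CPM per kb, each overlapping its neighbour by mean ± SD. HNRNPA2B1 also led in K700E nuclei, at 583 ± 74.4 CPM per kb, followed by HNRNPDL at 305 ± 108. HNRNPH1 was lowest in all 4 groups by this length, with the limit on its counts given above. With the length of all annotated exons in place of the principal transcript, HNRNPA1 led both cytoplasms, HNRNPA2B1 the WT nuclei and HNRNPDL the K700E nuclei, and HNRNPU (38.6 CPM per kb) was below HNRNPH1 (39.6) in WT nuclei.

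Nuclear libraries varied more than cytoplasmic ones for these genes. The median coefficient of variation over the 10 genes was 27.2% in WT nuclei and 17.1% in K700E nuclei, against 6.78% in WT and 6.54% in K700E cytoplasms. Genes of at least 100 CPM had medians of 23.8%, 20.5%, 8.80% and 14.0% in the same groups. Among WT nuclei, library 1 was the highest for 9 of the 10 genes and library 2 the lowest for 8. Among K700E nuclei, library 2 was the highest for 9 genes and library 3 the lowest for all 10. The order of libraries was not counted over all genes, so it is not shown to be particular to these 10. The 10 long noncoding RNAs summed to 3981, 6831 and 7211 CPM in WT nuclei 1 to 3 and to 3539, 10788 and 7366 CPM in K700E nuclei 1 to 3. WT nucleus 1, with the lowest sum of its group, thus had the highest hnRNP levels, while K700E nucleus 2 was highest for both. These sums mainly follow MALAT1, at 2108, 4632 and 4428 CPM in WT nuclei and 1670, 8209 and 4739 CPM in K700E nuclei. The RNAs of the set did not all share its order. In WT nuclei NEAT1 was at 604, 1235 and 1058 CPM, but TUG1 at 700, 373 and 526 CPM. The sum is therefore not a measure of nuclear content for a single library. The part of these differences between nuclei in the results was not tested beyond leaving out each library.

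Paralogs could be compared directly, because the ratio of 2 genes' counts within a library does not depend on scaling between libraries. Of the 45 pairs of the 10 genes, 43 differed in their cytoplasm-to-nucleus ratio (two-sided exact permutation of the fraction labels within each construct, 400 arrangements, smallest possible p 0.005, Benjamini-Hochberg adjustment over 45 pairs). All 5 pairs of close paralogs differed, each with the smallest adjusted p these permutations gave, 0.00563. In 40 of the 45 pairs the fractions did not overlap, in the same direction, in both constructs. Pairs of other genes were not tested, so no background share is available and these counts are not shown to be particular to hnRNP genes. Of single genes, 67.1% in WT and 65.9% in K700E cells were called between the fractions by edgeR. The 45 pairs also reuse the same 10 genes, so they are not separate observations.

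The HNRNPA1 to HNRNPA2B1 count ratio was 0.506, 0.444 and 0.445 in WT nuclei and 1.15, 1.21 and 1.43 in WT cytoplasms, and 0.488, 0.419 and 0.519 in K700E nuclei and 1.69, 1.45 and 1.67 in K700E cytoplasms. HNRNPA2B1 thus had more counts in every nuclear library and HNRNPA1 in every cytoplasmic one. Over both constructs the ratio was 3.03-fold higher in the cytoplasm, a log2 difference of 1.60 ± 0.08 (SE). The HNRNPA2B1 to HNRNPA3 ratio ran from 3.33 to 3.73 in the 6 nuclei and from 1.81 to 2.13 in the 6 cytoplasms, 1.77-fold lower in the cytoplasm (log2 −0.82 ± 0.03). The HNRNPA1 to HNRNPA3 ratio was 1.71-fold higher in the cytoplasm (0.78 ± 0.10). These 3 A-type genes therefore took the order A1, A3, A2B1, from the most to the least cytoplasmic.

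The HNRNPD to HNRNPDL ratio was 0.616, 0.711 and 0.566 in WT nuclei and 1.55, 1.56 and 1.45 in WT cytoplasms, and 0.678, 0.662 and 0.560 in K700E nuclei and 1.35, 1.38 and 1.44 in K700E cytoplasms. The ratio changed sides of 1 between the fractions in all 12 libraries, K700E nucleus 2 included. It was 2.31-fold higher in the cytoplasm (1.21 ± 0.07). The HNRNPH1 to HNRNPH3 ratio was 0.930, 1.07 and 1.54 in WT nuclei and 0.308, 0.409 and 0.281 in WT cytoplasms, and 1.18, 1.30 and 1.19 in K700E nuclei and 0.324, 0.340 and 0.338 in K700E cytoplasms. It was 3.58-fold lower in the cytoplasm (−1.84 ± 0.14), with the limit on HNRNPH1 counts given above.

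**Figure D3:**
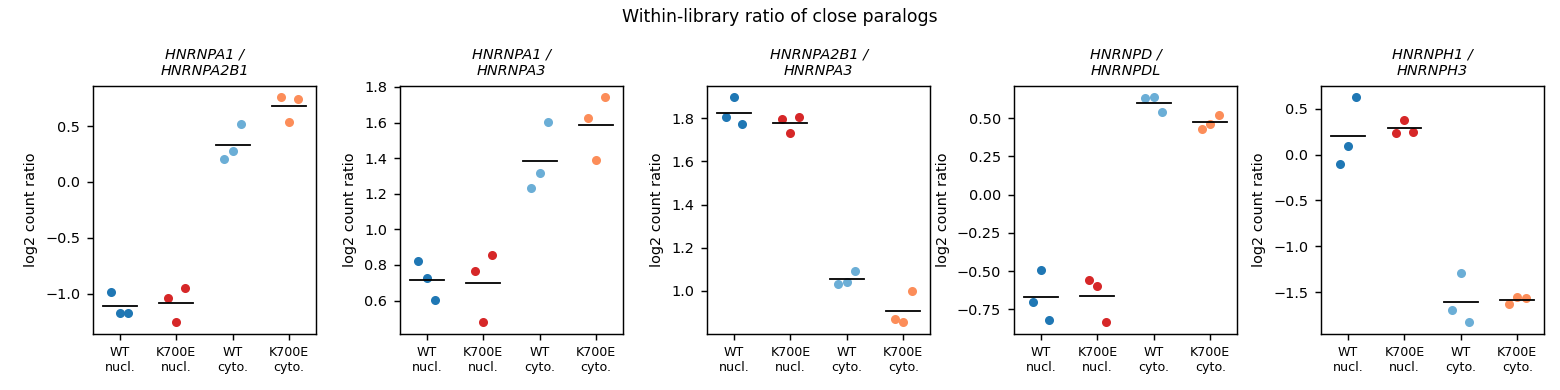
Log2 ratio of the counts of 2 close paralogs within each library (vertical axis, each panel with its own scale), by group. Points are libraries and lines are means of 3. In all 5 panels the nuclear and cytoplasmic points are apart, by a log2 difference from 0.78 to 1.84 in size over both constructs.

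Averaged over both constructs, the log2 cytoplasm-to-nucleus differences ran in the order HNRNPC (2.28), HNRNPA1 (1.88), HNRNPK (1.15), HNRNPA3 (1.11), HNRNPU (0.83), HNRNPD (0.39), HNRNPA2B1 (0.29), HNRNPH3 (−0.25), HNRNPDL (−0.81) and HNRNPH1 (−2.08). Of the neighbours in this order, HNRNPK and HNRNPA3 (0.04 ± 0.11, adjusted p = 0.765) and HNRNPD and HNRNPA2B1 (0.10 ± 0.16, adjusted p = 0.578) did not pass the exact permutation test. HNRNPC and HNRNPA1 passed, with an adjusted p of 0.0366 that was lost when any of 8 single libraries was left out (up to 0.0890). These 8 were WT nuclei 1 and 3, the 3 WT cytoplasms, K700E nuclei 1 and 3, and K700E cytoplasm 1.

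In the nucleus, no hnRNP gene passed the test between K700E and WT. The log2 differences, K700E against WT, ran from 0.00 for HNRNPC to 0.54 for HNRNPD, and the libraries overlapped for all 10 (of all genes, 3.91% did not overlap with K700E higher and 4.87% with K700E lower). HNRNPD (0.54 ± 0.25, 95% interval 0.00 to 1.07, adjusted p = 0.660) and HNRNPDL (0.50 ± 0.24, −0.02 to 1.02, adjusted p = 0.660) had the highest values. Without K700E nucleus 2 these were 0.17 and 0.18. Over all genes edgeR called none (0%), with 1389 genes at an unadjusted p under 0.05, a smallest adjusted p of 0.222, and 1 gene called by DESeq2.

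In the cytoplasm, no hnRNP gene was called either. The log2 differences ran from −0.41 for HNRNPD to 0.09 for HNRNPA1, and every adjusted p was 1. For 5 of the 10 genes (HNRNPD, HNRNPH1, HNRNPH3, HNRNPK and HNRNPU) all K700E libraries were below all WT libraries, against 6.98% of all genes (6.6% in the other direction). HNRNPK, for example, was at 1435 to 1536 CPM in K700E and 1682 to 1698 CPM in WT cytoplasms (log2 −0.18 ± 0.23), and HNRNPH3 at 239 to 260 and 302 to 329 CPM (−0.34 ± 0.21). HNRNPU nearly touched, at 1498 to 1696 CPM in K700E and 1705 to 1959 CPM in WT cytoplasms. Overlap was counted with TMM scaling only and may change with another scaling. The 5 genes were measured in the same libraries, so they are not separate observations. Among all genes 1 was called, or 0.0049%, the identifier ENSG00000277104.4, which has no symbol in the tables used and is named after its value was seen (2.79 ± 0.39, higher in K700E, adjusted p = 0.0396). At an unadjusted p under 0.05 there were 929 genes.

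**Figure D4:**
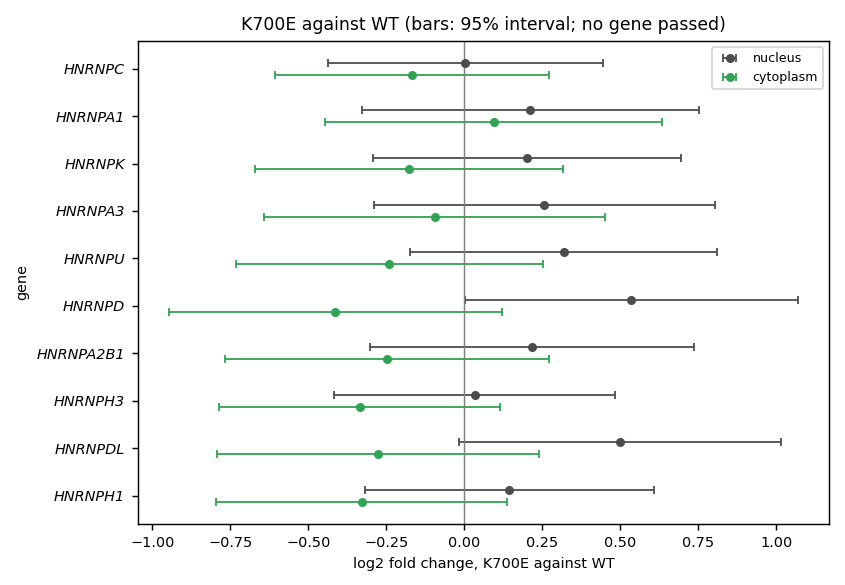
Log2 fold change, K700E against WT, of the 10 hnRNP genes in the nucleus (grey) and in the cytoplasm (green), with 95% intervals. The nuclear values lie from 0.00 to 0.54 and the cytoplasmic ones from −0.41 to 0.09, and no gene passed the test.

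Whether the cytoplasm-to-nucleus difference itself changed with K700E was tested as an interaction. No hnRNP gene passed, and no gene of the 20394 passed with edgeR (0%; 672 at an unadjusted p under 0.05; 3 called by DESeq2). The values, K700E minus WT on the log2 scale, were −0.95 ± 0.36 for HNRNPD, −0.78 ± 0.35 for HNRNPDL, −0.56 ± 0.33 for HNRNPU, −0.47 ± 0.31 for HNRNPH1, −0.47 ± 0.35 for HNRNPA2B1, −0.38 ± 0.33 for HNRNPK, −0.37 ± 0.30 for HNRNPH3, −0.35 ± 0.37 for HNRNPA3, −0.17 ± 0.29 for HNRNPC and −0.12 ± 0.36 for HNRNPA1. HNRNPD had the smallest unadjusted p of the 10 (0.0168, adjusted p = 0.980). So HNRNPD, called higher in the WT cytoplasm and not in the K700E cytoplasm, and HNRNPDL, called lower in the K700E cytoplasm and not in the WT cytoplasm, are not shown to differ between the constructs.

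All 10 values were below 0 (9 of 9 without HNRNPH1), with a median of −0.42. Of all genes 46.3% were below 0 (median 0.05), of protein-coding genes 47.4% (median 0.03), and of 20 other hnRNP genes 12 (median −0.13). The 10 genes are measured in the same 12 libraries and their values move together in the nuclear ones, so these are not 10 separate observations, and the interaction shares its libraries with the K700E against WT comparisons. Without WT nucleus 2, HNRNPA1 was at 0.14 and the median at −0.26. The median was −0.25 without K700E nucleus 2 and −0.65 without WT nucleus 1. The 13 mitochondrial mRNAs had an interaction median of −0.93 and the 9 tested long noncoding RNAs of −0.10, and the part of the fractions' purity in the hnRNP values was not tested.

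**Figure D5:**
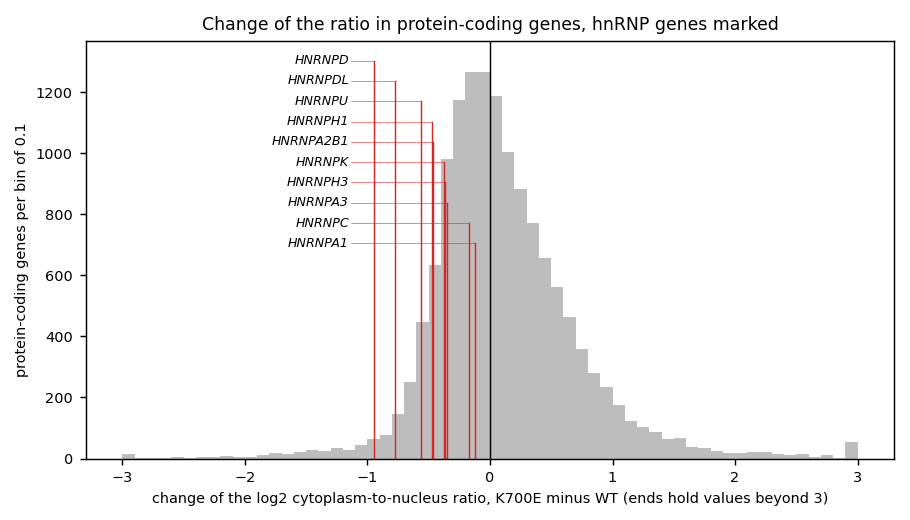
Number of protein-coding genes (vertical axis) by the change of the log2 cytoplasm-to-nucleus difference, K700E minus WT (horizontal axis, bins of 0.1, end bins hold values beyond 3), with the 10 hnRNP genes as red lines. All 10 lie below 0, from −0.95 for HNRNPD to −0.12 for HNRNPA1, inside the range of the other genes.

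For the paralog ratios within libraries, the same change was computed as a value and not tested. The log2 change of the cytoplasm-to-nucleus difference, K700E minus WT, was 0.32 ± 0.16 (SE) for HNRNPA1 against HNRNPA2B1 and 0.22 ± 0.20 for HNRNPA1 against HNRNPA3. It was −0.10 ± 0.07 for HNRNPA2B1 against HNRNPA3, −0.14 ± 0.14 for HNRNPD against HNRNPDL and −0.06 ± 0.28 for HNRNPH1 against HNRNPH3. HNRNPD and HNRNPDL thus each had a low interaction value while their ratio to each other moved little.

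Other hnRNP genes, were taken from a list of 23, of which 20 were tested. In WT cells 15 were higher and 3 lower in the cytoplasm (median log2 difference 1.20), beside 27.1% and 40% of all genes and 35.4% and 29.5% of protein-coding genes. In K700E cells 15 were higher and 2 lower (1.06), beside 28.1% and 37.9% of all genes and 36.5% and 27.4% of protein-coding genes. HNRNPA0, an A-type gene without introns, had the highest WT value at 3.43 ± 0.25, from 46.9 ± 10.5 CPM in nuclei to 507 ± 80.7 CPM in cytoplasms (SD, n = 3). HNRNPUL1, a relative of HNRNPU, was at 2.46 ± 0.20. Those lower in WT cytoplasm included PTBP2 (−1.53 ± 0.27), the neuronal paralog of the splicing repressor PTBP1, and PCBP4 (−1.26 ± 0.36), a poly(C)-binding protein. HNRNPL and HNRNPR were among those not tested, as their identifiers held at most 5 and 4 counts in any library. As for HNRNPH1, reads of these genes may have been lost in counting, which was not tested. Such counts do not show that the genes are silent in these cells.

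Of 9 genes for nuclear import and arginine methylation of hnRNP proteins, 8 were tested. In WT cells 7 were higher in the cytoplasm and TNPO2 was lower (−1.38 ± 0.22), and in K700E cells 6 were higher and TNPO2 was again lower (−0.89 ± 0.22). The shares called higher were 27.1% of all and 35.4% of protein-coding genes in WT cells, and 28.1% and 36.5% in K700E cells. TNPO2 and TNPO1 encode transportins, the import receptors of hnRNP A1, and TNPO1 was higher in WT cytoplasm (1.19 ± 0.33). PRMT6, an arginine methyltransferase, had the smallest p (2.74 ± 0.29), followed by the importin KPNB1 (1.53 ± 0.20). PRMT1, the main arginine methyltransferase of these proteins, was at 1.996 ± 0.31. None of the genes of either list was called between K700E and WT in either fraction or in the interaction. Of 9 hnRNP-like retrocopies, 3 were tested, and HNRNPA1L3 was at 3.44 ± 0.33 in WT cells, where its 5.01 CPM in nuclei and 54.6 CPM in cytoplasms are uncertain because of its likeness to HNRNPA1.

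The annotation lists many noncoding transcript forms for several of these genes. HNRNPH1 has 16 annotated transcripts with a retained intron among 50, HNRNPU 10 among 31 and HNRNPC 6 among 33, while HNRNPDL and HNRNPH3 have none. HNRNPH3 has 9 annotated processed transcripts among 11, another noncoding form. HNRNPU has 9 annotated targets of nonsense-mediated decay, and HNRNPDL and HNRNPH1 have 4 each. Of 19969 protein-coding genes, 46.1% have at least one retained-intron transcript and 35.6% at least one annotated target of nonsense-mediated decay. HNRNPC and HNRNPH1, at opposite ends of the order of cytoplasm-to-nucleus differences, both carry retained-intron transcripts. So do all of these genes except HNRNPDL and HNRNPH3, and whether such forms bear on that order was not tested. Counts per gene do not separate these forms, so their levels were not analysed here.

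The genes most like each hnRNP gene were found by Pearson correlation of log2 CPM over the 12 libraries, among 10289 genes of at least 5 CPM. For HNRNPC they were SNRPD1, which encodes a core Sm protein of the spliceosome (r = 0.998), and STAU1, which encodes a double-stranded RNA-binding protein (0.997). HNRNPA1 was closest to UNC119B (0.997), HNRNPK to CCNA2, which encodes cyclin A (0.994), HNRNPA3 to AASDHPPT (0.994) and HNRNPU to TMEM167A (0.988). HNRNPH1 was closest to REV1, a DNA polymerase of damage bypass (0.991), HNRNPDL to NAA25 (0.982), HNRNPA2B1 to YTHDF3, a reader of N6-methyladenosine (0.979), and HNRNPD to NCAPG, a condensin subunit (0.942). HNRNPH3 had the weakest best match, ZNG1A (0.857). These correlations describe 4 groups in 2 fractions that share libraries, and they include the difference between the fractions.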

How the data were processed

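Counts per gene were deposited as 1 table per library, and the values are whole numbers. HISAT2 and DESeq, with no version, are listed in the submitters' processing notes. Not given in the sources used here are the program that counted reads, the genome build, the annotation, the use of strand and the treatment of multi-locus reads. Per the labels' protocols, RNA was extracted with Trizol and libraries were made with a NEBNext Ultra kit.

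The 10 genes, the other lists and the tests were chosen with earlier results of these data known. Identifiers were matched by symbol (60463 of 67049) and to GENCODE 29 on GRCh38 (58440, holding 99.7% of counts), which gave coordinates and lengths. No 2 libraries were identical. In R 4.3.3, edgeR 4.0.16 fitted all 12 libraries with 1 term per group, TMM factors and filterByExpr (minimum count 10, minimum total 15). Quasi-likelihood tests were adjusted by Benjamini-Hochberg over 20394 genes. Alternatives were library size or upper quartile scaling, DESeq2 1.42.0, voom in limma 3.58.1, other filters, the compared groups alone, a replicate block, and each library left out. Leaving out HNRNPH1 was chosen after seeing the data. Ratios of 2 genes used counts plus 0.5. All 10 genes are named, with at most 6 examples per other list, by smallest p in each direction, and the 2 most correlated genes per member. The edgeR script was tested on simulated data. The values of 1 gene of the list of other hnRNP genes are not reported here.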

Additional observations from a re-analysis of the deposited data

How the results depend on the processing

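The lowest count of any of the 10 genes was in HNRNPH1, and the spread between nuclear libraries, wider than between cytoplasmic ones, limits the precision. With HNRNPH1 left out, 0 genes were lower in WT and 1 in K700E cytoplasm. In WT cells 3 genes were lower with library size alone, 2 with upper quartile factors and 2 with 1 CPM in all 12 libraries, which also left 4074 of all genes lower. In K700E cells 3 were higher with library size alone and 3 with upper quartile factors, and 3938 of all genes were lower with 1 CPM in all 12 libraries. The scalings move the median of all genes. The 1 CPM filter tests fewer genes (12309), and the TMM factors were computed anew on those genes. The log2 values moved with this filter too, in WT cells from 0.86 to 0.55 for HNRNPD and from −0.42 to −0.74 for HNRNPDL. In K700E cells they moved from 0.55 to 0.23 for HNRNPU and from −0.44 to −0.76 for HNRNPH3. For other changes the cause was not tested. No called difference of the 10 genes changed sign under any alternative run.

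Counts over all genes between K700E and WT were small and moved. With DESeq2, 1 gene was lower in the nucleus, 11 were higher and 2 lower in the cytoplasm, and 2 were higher and 1 lower in the interaction. Without the filter, 10 were higher and 26 lower in the nucleus, 50 and 35 in the cytoplasm, and 24 and 7 in the interaction. In the cytoplasm, 0 were higher with voom and 0 with the compared groups alone. None of the 10 genes was called in these comparisons under any of the alternatives.

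With each library left out in turn, 6 to 7 of the genes were higher and 1 to 1 lower in WT cells, and 4 to 5 higher and 2 to 2 lower in K700E cells. Over all genes, 0 to 1 were lower in the nucleus, 0 to 2 higher in the cytoplasm and 0 to 1 higher in the interaction, and 42 to 43 of the pairs passed.

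With the replicate number as a block, 0 genes were higher between K700E and WT cytoplasms, HNRNPU was no longer called in K700E cells (adjusted p = 0.0553), and 41 pairs passed, without HNRNPA1 against HNRNPC and HNRNPD against HNRNPU (0.0654 each). Same-numbered libraries had correlations of their deviations from −0.17 to 0.43. Between K700E and WT nuclei these were 0.43, 0.06 and 0.20 for numbers 1 to 3, and between the cytoplasms 0.03, 0.16 and 0.34. Between the fractions of a construct they ran from −0.17 to 0.09. Such correlations cannot decide whether the numbers pair the samples, since libraries of 1 sample need not deviate alike in both fractions.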
